A study of Mus musculus with 8 samples.

Results

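The transcripts described here are the long intergenic non-coding RNAs (lincRNAs) that were well expressed in cultures of activated mouse microglia. They are all genes that the deposited table classes as lincRNA and whose mean level over the 8 libraries was 2 or more on the CPM scale (the raw count of a gene divided by the total of its library, times 1000000). This rule took 178 of the 2439 lincRNAs with a count (7.30%), out of 31406 genes of all classes. For comparison, 12683 of the 17867 protein-coding genes (71.0%) reached the same level. The members were thus chosen by their own measured level, which is given as a description. The last 3 lincRNAs inside the limit were Gm38102 at 2.01 CPM, Gm7160 at 2.01 CPM and Gm14275 at 2.00 CPM, and the first 3 outside it were Gm46404 at 1.99 CPM, Gm45847 at 1.97 CPM and Gm14221 at 1.96 CPM.

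The libraries came from primary cultures of wild-type striatal microglia, prepared from C57/BL6 pups aged 2 to 4 days of 4 pregnant animals and kept for 15 days before use. The cells of all 8 libraries were exposed for 48 h to LPS and interferon-γ (a reagent listed as the human protein), which the study used to activate them. All received SCH 58261, an antagonist of the adenosine A2A receptor. For 4 libraries this was the only ligand (A2A antagonist group). The cells of 4 others also received 2-Cl-IB-MECA at 200 nM, an agonist of the adenosine A3 receptor (dual group). Additions were made at 24, 32 and 40 h of activation. Groups follow the sample titles; the treatment field of the labels names the agonist for the A2A antagonist group instead, so every direction rests on the titles. Nothing in the labels ties a library to a litter or to a separate culture, and the p-values measure the spread between these libraries only. Cells without activation or without ligand were not analysed here, so no value below describes a response to LPS or to the antagonist itself.

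A lincRNA is annotated as non-coding, and many are transcribed, spliced and polyadenylated like a messenger RNA. Many are kept in the nucleus at low copy number. Of the 178 members, 37 have a single exon in their longest transcript, Malat1 among them. A few are abundant architectural RNAs, such as Malat1 of the nuclear speckles, Neat1 of the paraspeckles and Xist of the inactive X chromosome. Others are known mainly as the precursors of small RNAs cut from their introns or exons, or as binding platforms in the cytoplasm, and in glia and macrophages the best known of these precursors are the hosts of miR-9, let-7 and miR-155.

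Sequences of the small RNAs carried by the members show which regulators their transcription can supply. Of the 178 lincRNAs, 16 contain an annotated microRNA gene on their own strand, and for 14 of these RefSeq (GRCm38.p6) gives the mature sequence: 35 different mature microRNAs with 30 different seeds. These counts are minima: 6720427I07Rik also contains Mirlet7a-1 and Mirlet7f-1, for which no mature sequence was obtained. Capitals mark the seed, bases 2 to 8 from the 5′ end, which pairs with target messengers. The first pair below is present in identical form in 3 members, Gm3764 (Mir9-1, chr3:88215613-88215635 for the 5p arm, + strand), C130071C03Rik (Mir9-2, chr13:83738821-83738843, + strand) and Mir9-3hg (Mir9-3, chr7:79505279-79505301, + strand), and these were the only seeds found in more than 1 member. The others are let-7d from 6720427I07Rik (chr13:48536078-48536099, - strand), miR-155 from Mir155hg (chr16:84714143-84714165, + strand), miR-101a from E130102H24Rik (chr4:101346957-101346977, - strand), miR-675 from H19 (chr7:142577112-142577133, - strand) and miR-770 from Meg3 (chr12:109563710-109563731, + strand).
miR-9-5p: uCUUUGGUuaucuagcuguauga
miR-9-3p: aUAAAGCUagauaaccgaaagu
let-7d-5p: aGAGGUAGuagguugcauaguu
miR-155-5p: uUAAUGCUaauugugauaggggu
miR-101a-3p: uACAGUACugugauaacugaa
miR-675-5p: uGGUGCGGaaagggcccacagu
miR-770-5p: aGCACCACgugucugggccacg

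Elements bound by other regulators stood out in the sequence of 2 of the most abundant members. The lincRNA 1700020I14Rik (Oip5os1 in RefSeq, known as Cyrano) holds a long site for miR-7, a microRNA that this RNA is known to destroy. In its longest transcript (8300 bases, GENCODE M21) the site lies at chr2:119602137-119602161 on the + strand of GRCm38, and 21 of its 25 bases, shown in capitals, are complementary to miR-7a-5p, including a run of 13 bases outside the seed match. The seed match GTCTTCC alone was present in the longest transcript of 47 members, but this was the only member with a run of 10 or more complementary bases before it, and the next longest run was 7.
Site in 1700020I14Rik: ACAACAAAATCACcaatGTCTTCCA
miR-7a-5p: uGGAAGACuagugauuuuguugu

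The lincRNA 2900097C17Rik (Norad in RefSeq) is a cytoplasmic RNA known to bind Pumilio proteins through repeated elements. Its transcript of 4915 bases held 11 copies of TGTANATA, the element searched for on the transcribed strand (6 as TGTATATA, 3 as TGTACATA and 2 as TGTAAATA), the highest number among the members, which was 2.24 per 1000 bases. At least 1 copy was present in 52 of the 178 members (29.2%), and the median was 0. Gm7292 followed with 9 copies in 2527 bases, a higher density of 3.56 per 1000 bases, but 2144 of its 2497 31-base words also occur in 2900097C17Rik, so reads of these 2 genes may be split between them. A stretch of 27 bases with 2 neighbouring elements in capitals, at chr2:156390517-156390543 on the - strand of GRCm38, is shown.
Elements in 2900097C17Rik: tatgcTGTATATAtTGTACATActgga

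The study reported a high microglial purity by CD11b labelling, but RNA of marker genes of other cell types was well expressed in these libraries. On the FPKM scale, where counts are divided by gene length and levels of different genes can be compared, the median of 9 microglial marker genes was 25.1, against 75.4 for 8 astrocyte markers and 55.9 for 6 fibroblast markers. The microglial genes C1qa (420 FPKM) and Cx3cr1 (20.7 FPKM) were well expressed, the homeostatic genes P2ry12 (0.715 FPKM) and Tmem119 (3.18 FPKM) were low, and the astrocyte gene Gfap stood at 390 FPKM. Of the 5 endothelial markers listed, 4 were among the deposited genes, and Cldn5 was absent. None of the markers found there was at 0 in all libraries. Neuronal (0.793 FPKM) and endothelial (0.271 FPKM) medians were near 0, although the endothelial gene Cdh5 stood at 8.19 FPKM. Medians were 9.85 FPKM for the oligodendrocyte lineage, 3.85 for mural cells and 1.12 for ependymal cells. Single genes of these lists were higher, such as Olig1 (119 FPKM), Acta2 (49.8 FPKM) and Foxj1 (87.6 FPKM). Medians of different marker genes do not measure cell fractions. The lincRNA levels can therefore not be assigned to microglia alone. Fewer cells of a type and less RNA per cell cannot be told apart here. Total counts per library ranged from 32630602 to 45878639, and mitochondrial genes took 1.58 to 1.80% of them.

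Levels among the 178 lincRNAs were very uneven. The median was 4.58 CPM and the range 2.00 to 2475, with 5 members at 100 CPM or more, 43 at 10 or more and 94 below 5. Per length, the median was 1.79 FPKM, against 7.23 FPKM for the protein-coding genes above the same CPM limit. The 10 most abundant took 73.1 to 80.2% of the counts of all members in each library. Most members have no functional name: 150 of 178 carry only a clone, Riken or predicted-gene symbol.

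Malat1 led by a wide margin, at 2475 CPM and 352 FPKM. Neat1 followed at 659 CPM and Xist at 608 CPM, but per length (31.5 and 33.6 FPKM) both came after 2900097C17Rik, at 315 CPM and 63.7 FPKM. The fifth, 1700020I14Rik, reached 104 CPM and 12.5 FPKM. Next came Gm26917 (95.6 CPM), the miR-9 host Gm3764 (66.4 CPM), Tmem250-ps (57.7 CPM), Gm42047 (53.3 CPM) and 6330403K07Rik (49.97 CPM). For Gm42047, 72.3% of the 31-base words also occur in other genes, and RefSeq lists Tmem250-ps and 6330403K07Rik as protein coding, so these levels are uncertain as lincRNA levels.

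**Figure D1:**
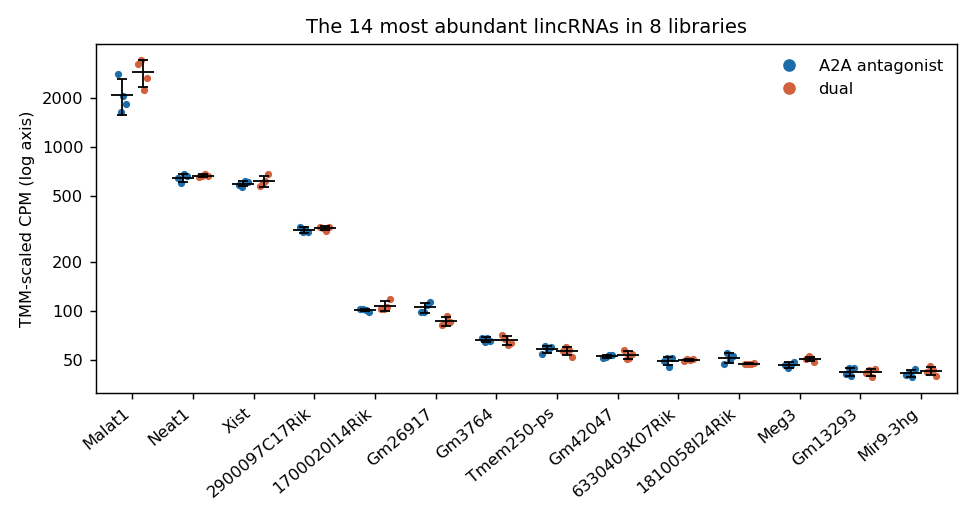
TMM-scaled CPM (log axis) of the 14 most abundant lincRNAs, with 1 point per library, bars for the mean and SD of 4 libraries, and colours for the A2A antagonist and dual groups. Malat1 spans 1641 to 3382 over the 8 libraries, whereas 2900097C17Rik spans 301 to 327.

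The libraries gave a similar level for most of the abundant members, and Malat1 was the exception. Its coefficient of variation within groups averaged 21.5%, the ninth highest of the 178 members, and its highest library stood 2.06 times above its lowest. By contrast, 2900097C17Rik had the lowest variation of all members, 3.07%, and Meg3 (3.57%) and Neat1 (3.69%) were also among the steadiest. Over the 43 members at 10 CPM or more the median coefficient of variation was 5.53%, against 4.25% for protein-coding genes at these levels. For the 135 members between 2 and 10 CPM it was 10.6%, against 9.96%. The 3 most variable members were Gm10076 (37.6%), Gm7967 (31.4%) and Gm15728 (23.8%). Gm10076 is a pseudogene in RefSeq that has 84.2% of its words in common with other genes, and the spread came from 1 dual library (37.7 TMM-scaled CPM, against 12.4 to 19.6 in the 7 others).

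Members took a small share of all counts, and Malat1 set how that share varied. In the A2A antagonist libraries the members held 0.614, 0.481, 0.540 and 0.514% of the counts, and in the dual libraries 0.654, 0.672, 0.564 and 0.611%. The groups overlapped, since the first A2A antagonist library lay above 2 dual libraries. The means were 0.537% ± 0.0565 and 0.625% ± 0.0484 (SD, n = 4), and the two-sided exact permutation test over 70 arrangements gave p = 0.0857, where the smallest possible value is 0.0286. Without Malat1 the shares were 0.330% ± 0.00758 and 0.338% ± 0.00724 (n = 4, exact permutation p = 0.200). The share without Malat1, Neat1 and Xist stayed between 0.202 and 0.212% in every library.

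**Figure D2:**
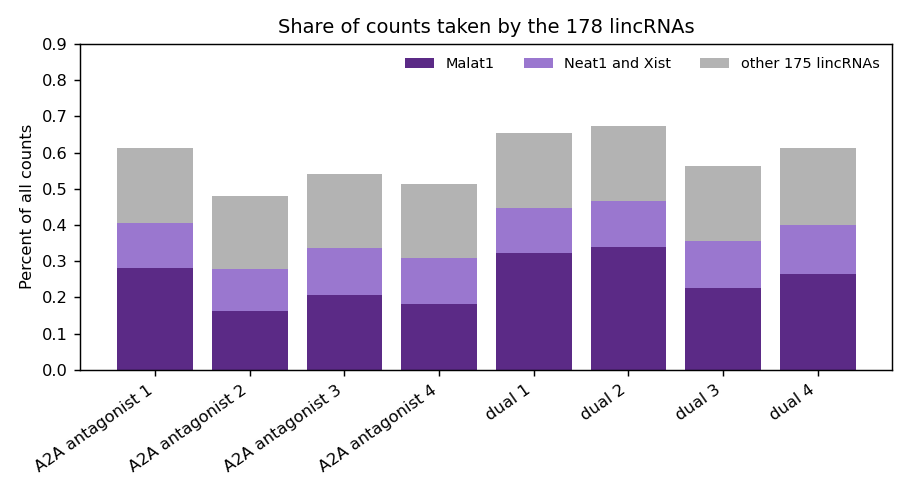
Percent of all counts taken by the 178 lincRNAs in each library, as stacked bars for Malat1, for Neat1 and Xist together, and for the 175 others. The top of the bars ranges from 0.481 to 0.672%, and nearly all of that range lies in the Malat1 segment.

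The dual group was then compared with the A2A antagonist group, which asks what the A3 agonist added in cells whose A2A receptors were blocked. All 178 members entered the fit of edgeR across 18756 genes, of which 39 (0.208%) had an adjusted p under 0.05 by its quasi-likelihood test. Among the members 1 did, Gm26917, which fell, in a direction that 0.16% of all genes tested shared at this threshold. DESeq2 called 4.7% of the 8877 genes for which it gave an adjusted p, and also 1 member, Gm26917. Those 8877 are fewer than the 10244 protein-coding genes at 10 CPM or more. Members of low level may thus have had no adjusted p from DESeq2, and could then not be called by it. At an unadjusted p under 0.05 there were 25 members (14.04%), 18 higher and 7 lower in the dual group, against 12.8% of all genes tested (5.98% higher and 6.81% lower) and 15.1% of those at 2 CPM or more. The members' share is near this background and is no result about lincRNAs. These shares are also the background for counts at this threshold in the lists below. In 14 members (7.87%; 8 higher, 6 lower) the groups did not overlap, against 7.42% of all genes tested and 8.45% of those at 2 CPM or more.

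Changes were small throughout. The log2 fold changes of the members ran from -0.40 to 0.46, with a median of 0.03 (0.00 for all genes tested), and 106 (59.6%) were above 0, against 51.5% of all genes. None passed a fold change of 1.5 in either direction. For 166 members the estimate plus and minus 2 standard errors (SE) lay wholly within a 1.5-fold change. The precision depended on the level: the median SE was 0.15 (log2) for the 55 members between 2 and 3 CPM and 0.06 for the 43 at 10 CPM or more.

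**Figure D3:**
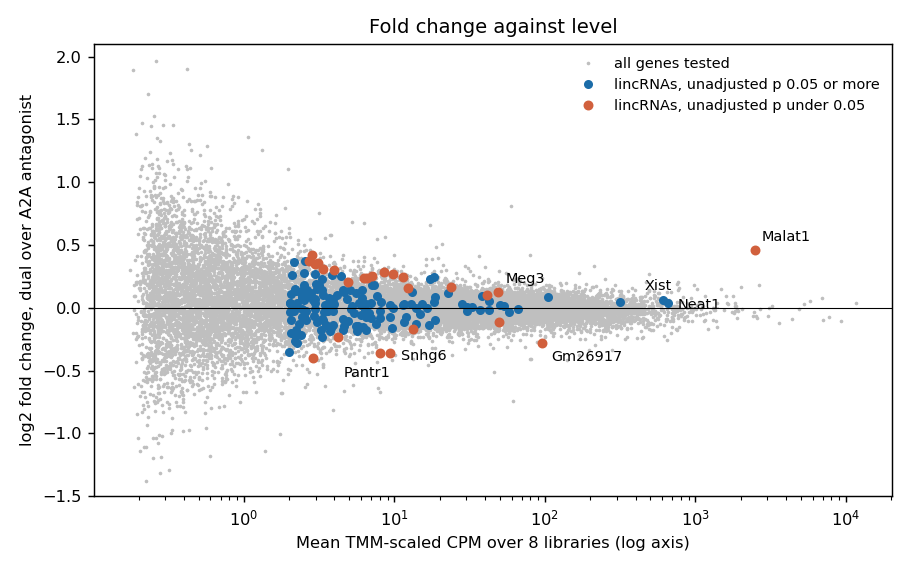
Log2 fold change of the dual over the A2A antagonist group against the mean TMM-scaled CPM (log axis), for all 18756 genes tested (grey) and the 178 lincRNAs, coloured by whether the unadjusted p of edgeR was under 0.05. The lincRNAs lie between -0.40 and 0.46, with Malat1 highest and Gm26917 the called one.

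Gm26917 was the member that fell. It is a gene of 1 exon at chr17:39843013-39846341 (+ strand, GRCm38) with the highest GC content of the members, 69.1%, and its symbol is on a list of genes at ribosomal RNA repeats. Its TMM-scaled CPM was 99.1, 98.5, 109 and 113 in the A2A antagonist libraries and 82.0, 84.2, 93.6 and 85.9 in the dual libraries. Every dual library was below every A2A antagonist library. On the log2 scale it fell by 0.28 (SE 0.05), and the adjusted p of edgeR was 0.0246. The call was lost when any of 5 single libraries was left out, with adjusted p-values up to 0.0932. According to the study's methods, the libraries were made from polyadenylated RNA. The summed level of the 101 genes of the rRNA class was 2515 to 2820 TMM-scaled CPM in the A2A antagonist group and 2348 to 2632 in the dual group (exact permutation p = 0.286, n = 4 each). Its part in the change of Gm26917 was not tested. The nearest protein-coding gene, Crisp1, lies 447417 bases away and was barely expressed (0.269 and 0.192 TMM-scaled CPM in the 2 groups).

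Of the 6 members on the list of nuclear architectural RNAs, Malat1, Neat1 and Xist were abundant, and Ftx, 2610035D17Rik and Jpx had means of 5.16 or less TMM-scaled CPM in both groups. Malat1, a nuclear RNA linked to splicing speckles, had 2800, 1641, 2058 and 1838 TMM-scaled CPM in the A2A antagonist group and 3227, 3382, 2233 and 2625 in the dual group. The first A2A antagonist library was above 2 dual libraries, so the groups overlapped. The difference of 0.46 on the log2 scale (SE 0.13) was the highest of all members, and edgeR gave it an adjusted p of 0.130. Without the first A2A antagonist library it was 0.63, with an adjusted p of 0.0105 by edgeR. Leaving out any of the 7 other libraries gave 0.36 to 0.56 and adjusted p-values of 0.105 to 0.336. Exons of Malat1 overlap those of another gene, so its count is uncertain.

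Neat1, the scaffold of paraspeckles, differed by a log2 fold change of 0.04 (SE 0.04) and Xist, which coats the inactive X chromosome, by 0.06 (SE 0.04). Neat1 ranged from 601 to 686 TMM-scaled CPM over the 8 libraries, and its exons also overlap those of another gene. Xist ranged from 572 to 686, with its highest value in the fourth dual library. Ftx, a regulator of Xist on the X chromosome, was close to no difference at -0.01 (SE 0.11). Of the 8 genes tested in the list of nuclear architecture, 2 had an unadjusted p under 0.05, Malat1 and the antisense RNA Kcnq1ot1, both higher, and none was called. Reads of Xist may include its antisense partner Tsix, with which it shares exonic bases on the opposite strand, since it was not stated whether counting used the strand. The 8 genes of the paraspeckle protein list gave 0 calls, 0 at an unadjusted p under 0.05, and a median log2 fold change of -0.03, and of 7 genes for Xist partners 1 (Spen, 0.13) had an unadjusted p under 0.05.

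Among members whose groups did not overlap, Pantr1 had the lowest log2 fold change. It is transcribed away from Pou3f3, a transcription factor gene of the developing brain, with starts 926 bases apart. Its TMM-scaled CPM was 8.97, 9.54, 9.52 and 8.06 in the A2A antagonist group and 6.65, 6.89, 7.04 and 7.47 in the dual group. This gave a log2 fold change of -0.36 (SE 0.08) and, by edgeR, an adjusted p of 0.0651. Pou3f3 itself had 169 and 167 TMM-scaled CPM in the 2 groups (log2 fold change -0.01, SE 0.03). The summed markers of the oligodendrocyte lineage were also lower in the dual group without overlap, at 576 to 613 TMM-scaled CPM against 623 to 659 (exact permutation p = 0.0286, n = 4 each, and 0.257 after Benjamini-Hochberg adjustment over 9 marker lists). Of these 8 genes, 7 had a log2 fold change below 0 and 1, Olig1 (-0.14), had an unadjusted p under 0.05. Their part in the level of Pantr1 was not tested.

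AW112010 is an RNA induced by interferon in immune cells that is known to yield a protein from an unusual reading frame. It had 13.3, 13.4, 15.6 and 13.7 TMM-scaled CPM in the A2A antagonist group against 11.8, 12.3, 12.5 and 13.0 in the dual group. All dual values were lower, and the log2 fold change was -0.17 (SE 0.07, adjusted p = 0.286 with edgeR). The list of 10 interferon-induced protein-coding genes differed in the same direction. Each had a lower mean in the dual group, 9 with an unadjusted p under 0.05, and Ifit3 (-0.23), Isg15 (-0.25) and Cxcl10 (-0.24) were called. The 9 microglial markers went in both directions, 4 with a log2 fold change above 0 and 5 below, with a median of -0.0012. C1qa was called lower (-0.24), whereas Csf1r was 0.11 with an unadjusted p under 0.05. Their sum spanned 1025 to 1096 TMM-scaled CPM in the A2A antagonist group and 983 to 1040 in the dual group, of which C1qa alone made up 476 and 403 on average. The part of the interferon-induced genes and of these markers in the level of AW112010 was not tested.

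The 5 highest log2 fold changes among members with an unadjusted p under 0.05 and no overlap were those of lincRNAs of low level, and none was called by edgeR. AC154760.1, which lies 1279 bases from Uggt2, had 2.62, 2.40, 2.30 and 2.13 TMM-scaled CPM against 3.37, 3.26, 2.79 and 2.82, a log2 fold change of 0.37 (SE 0.13). E130102H24Rik, the host of miR-101a, had 2.51, 2.97, 3.04 and 2.42 against 4.60, 3.10, 3.07 and 3.32 (0.35, SE 0.15). Its first dual library stood apart and the 3 others were just above the highest A2A antagonist value. Without that library the log2 fold change was 0.21.

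C230004F18Rik (Cdr1os in RefSeq) is the long transcript of the locus that makes the circular RNA of Cdr1as, another RNA known for its tie to miR-7. It had 3.55, 3.39, 3.57 and 3.70 TMM-scaled CPM against 3.95, 4.13, 3.96 and 5.44, a log2 fold change of 0.30 (SE 0.12), which was 0.18 without the fourth dual library. It shares 1554 exonic bases with Cdr1 on the opposite strand, so its count is uncertain. The remaining pair were Gm47469 (0.29, SE 0.08) and Gm26792 (0.21, SE 0.10). Gm26792 overlaps Cuedc2 on the opposite strand, and Cuedc2 differed in the other direction (-0.10, SE 0.04).

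Some further members with an unadjusted p under 0.05 are given here, picked with their values known. In all of them but Gm37494 the groups overlapped. The lowest and the highest log2 fold changes at low levels belonged to 2 unnamed Riken genes. 2900052N01Rik had 3.73, 3.14, 2.73 and 3.57 TMM-scaled CPM in the A2A antagonist group and 1.63, 2.71, 2.83 and 2.68 in the dual group (-0.40, SE 0.16). Here the third dual library lay just above the third A2A antagonist library. 5430416N02Rik had 2.93, 2.44, 2.08 and 2.29 against 3.22, 3.57, 2.90 and 3.32 (0.42, SE 0.14), with a crossing only between the first A2A antagonist and the third dual library.

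Further members in this set were more abundant. Gm37494 had 39.2, 40.1, 39.7 and 39.3 TMM-scaled CPM in the A2A antagonist group and 40.7, 40.1, 42.9 and 45.7 in the dual group. The groups nearly touched and differed by 0.10 on the log2 scale (SE 0.05). RefSeq lists Gm37494 as protein coding. D930016D06Rik, which RefSeq lists as Thoc2l, a relative of a messenger RNA export factor, had 23.1, 21.6, 23.1 and 21.7 against 22.7, 24.4, 26.4 and 26.5 (0.16, SE 0.06). C130083M11Rik (11.3 CPM) differed by 0.24 (SE 0.08) and C230072F16Rik (9.76 CPM) by 0.27 (SE 0.10). The 6 members at this threshold not described elsewhere were Gm46430, Gm26981, Gm7932, Gm20342, Gm44109 and Gm45250, all overlapping and with log2 fold changes of 0.16 to 0.35. Of these, Gm46430 and Gm7932 are protein coding in RefSeq. The adjusted p of edgeR was 0.162 or more for each member in this and the previous paragraph.

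**Figure D4:**
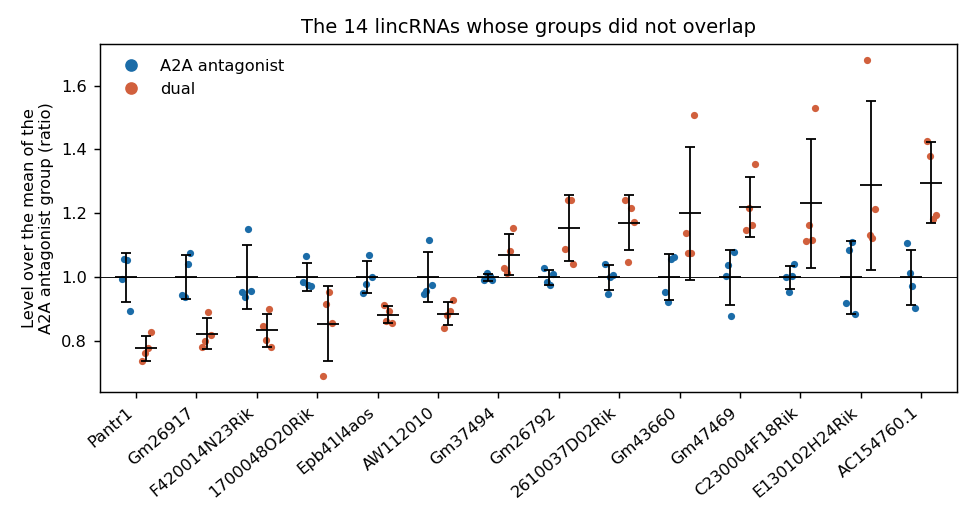
Level of the 14 lincRNAs whose groups did not overlap, as a ratio to the mean of the A2A antagonist group, with 1 point per library and bars for mean and SD of 4 libraries, ordered by log2 fold change. Pantr1 and Gm26917 are lowest and AC154760.1 highest, and the wide bars of C230004F18Rik and E130102H24Rik each come from 1 dual library.

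Hosts of microRNAs covered a wide range of levels, and none was called. The host transcripts were measured, not the mature microRNAs. The 3 hosts of miR-9, a microRNA of neural progenitors and astrocytes, were all abundant: Gm3764 at 66.4 CPM, Mir9-3hg at 42.3 CPM and C130071C03Rik at 38.2 CPM. Per length the order was the same, at 11.4, 9.63 and 6.71 FPKM. Their log2 fold changes were -0.01 (SE 0.05), 0.05 (SE 0.05) and 0.09 (SE 0.05), and in none were the groups separate.

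Mir155hg, the host of the inflammatory microRNA miR-155, had 9.38, 8.64, 9.88 and 9.14 TMM-scaled CPM in the A2A antagonist group and 8.74, 8.33, 10.5 and 9.86 in the dual group. The groups overlapped fully and the log2 fold change was 0.02 (SE 0.08). The let-7 host 6720427I07Rik had 5.50, 3.52, 3.35 and 3.74 against 4.84, 4.26, 5.25 and 4.74 (0.25, SE 0.14), where 3 of the A2A antagonist libraries were below all dual libraries and the first was above them. Over the 14 hosts of a known mature sequence, 11 were higher and 3 lower, with a median log2 fold change of 0.12. Of all members, 59.6% were higher. Of these hosts, 2 (14.3%) had an unadjusted p under 0.05 (Meg3 and E130102H24Rik), near the 12.8% of all genes tested, and none was called. The 7 genes of microRNA processing included 2 with an unadjusted p under 0.05, Ago2 (0.12) and Dicer1 (0.11), both higher and neither called.

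**Figure D5:**
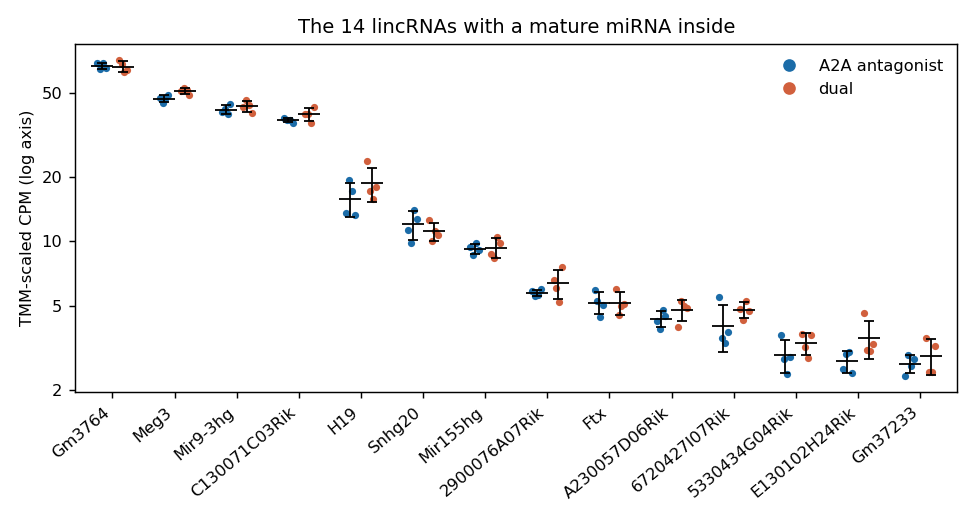
TMM-scaled CPM (log axis) of the 14 lincRNAs that contain a microRNA with a mature sequence in RefSeq, with 1 point per library and bars for mean and SD of 4 libraries. The 3 miR-9 hosts lie among the 4 highest, and the groups overlap in 13 of the 14 hosts, the exception being E130102H24Rik.

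Imprinted lincRNAs were represented by Meg3 and H19. Meg3, expressed from the maternal chromosome and known as a growth suppressor, had 47.0, 44.6, 46.5 and 48.9 TMM-scaled CPM against 51.0, 52.8, 51.6 and 48.7. The fourth libraries crossed over, at 48.9 and 48.7, and the others were separate. Its log2 fold change was 0.13 (SE 0.04, adjusted p = 0.201 with edgeR). H19, which is maternally expressed and gives rise to miR-675, varied more (13.3 to 23.8 over 8 libraries), with a log2 fold change of 0.23 (SE 0.12), which was 0.10 without the first dual library. In the wider imprinted list 9 genes were tested, 7 were higher, and none was called. The fibroblast markers summed to 2379 to 2652 TMM-scaled CPM in the A2A antagonist group and 2369 to 2986 in the dual group. Of these 6 markers, 5 had a log2 fold change above 0 and 1 below. Among them 3 were higher at an unadjusted p under 0.05, and none was called. Their part in the level of H19 was not tested.

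Hosts of small nucleolar RNAs, whose spliced transcripts are usually degraded by nonsense-mediated decay, had log2 fold changes below 0 in each of the 5 members of their list, but only Snhg6 had an unadjusted p under 0.05 and none was called. A sixth member with an annotated small nucleolar RNA gene, 2900076A07Rik, was at 0.14 (SE 0.11). Of all 178 members, 72 had a log2 fold change below 0. Snhg6 had 11.8, 10.5, 9.40 and 10.7 TMM-scaled CPM in the A2A antagonist group and 7.42, 7.83, 9.87 and 7.72 in the dual group. In the third libraries of the groups the order was reversed, and the rest were separate. This gave a log2 fold change of -0.36 (SE 0.09) and, by edgeR, an adjusted p of 0.104. It overlaps Mcmdc2 on the opposite strand by 127 exonic bases. Snhg12 (-0.10, SE 0.06), Snhg20 (-0.11, SE 0.10), Snhg18 (-0.05, SE 0.08) and Epb41l4aos (-0.18, SE 0.09) had unadjusted p-values of 0.05 or more. Of the 11 hosts on the list that are not lincRNAs, 8 were above 0 and 3 below, with a median log2 fold change of 0.06 against -0.11 for the 5 lincRNAs; this difference was not tested. The lowest p among them was that of Snhg11, at 0.56 (SE 0.12, adjusted p = 0.0606 with edgeR). Of 8 genes of nonsense-mediated decay, Smg1 (0.15) and Upf2 (0.11) were higher at an unadjusted p under 0.05 and none was called.

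Other lincRNAs of known immune or neural role were not called either. Pvt1, downstream of Myc, differed by -0.16 on the log2 scale (SE 0.08), and Gm14005 (Morrbid in RefSeq), which is known to restrain its neighbour Bcl2l11 in myeloid cells, -0.15 (SE 0.10). Miat, a nuclear RNA of neurons and progenitors, was at 0.00 (SE 0.07). Both cytoplasmic RNAs with elements shown above were close to no difference: 2900097C17Rik differed by 0.04 (SE 0.03) and 1700020I14Rik by 0.08 (SE 0.04). Over the 16 genes of the immune list that were tested, 2 were higher and 1 lower at an unadjusted p under 0.05, and none was called.

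Protein-coding neighbours did not stand out. The 178 members have 169 different nearest coding genes, of which 152 were tested, 0 were called by edgeR, and 18 (11.8%) had an unadjusted p under 0.05, near the 12.8% of all genes. Both the member and its neighbour had an unadjusted p under 0.05 in 4 pairs. In 3 of these both were higher: D930016D06Rik with BC005561 (0.16 and 0.24), AC154760.1 with Uggt2 (0.37 and 0.14), and Meg3 with Rtl1 (0.13 and 0.85, Rtl1 being at 0.202 and 0.375 TMM-scaled CPM). In the fourth, Gm26792 and Cuedc2, they went in opposite directions. The first 2 pairs lie on the same strand, 3124 and 1279 bases apart. RefSeq lists D930016D06Rik as the protein-coding gene Thoc2l, so the first pair is not a lincRNA with a coding neighbour there. Whether D930016D06Rik and BC005561 are separate genes was not checked. The 34 members whose start faces away from a coding gene within 1000 bases had 0 higher and 2 lower at an unadjusted p under 0.05, Pantr1 and A330074K22Rik.

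Annotation limits what a lincRNA count means here. Of the 178 members, 173 have the same coordinates in GENCODE M21 (GRCm38). RefSeq lists 112 as long non-coding RNA, 13 as protein coding and 4 as a pseudogene, and 49 had no entry there. Among the 13 are 1810058I24Rik, which encodes a small mitochondrial protein (49.6 CPM, log2 fold change -0.11, SE 0.05), and D930016D06Rik (Thoc2l, 23.7 CPM). Exons of 65 members overlap those of another gene, in 50 on the opposite strand, and for 10 members more than 50% of the 31-base words also occur elsewhere. In the list of 13, 5 had an unadjusted p under 0.05 (4 higher, 1 lower), against 15.1% of all genes at 2 CPM or more. The 65 had 9 at an unadjusted p under 0.05 (13.8%) and the 113 without overlap had 16 (14.2%).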

How the data were processed

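RNA was sequenced in 8 libraries as paired-end reads. The study's methods describe poly-T selection, while the labels name a SMARTER kit. The methods also give 3 replicates for ligand-treated cells, whereas a figure legend and the labels give 4. The authors aligned reads with HISAT2, as their methods state, and the submitters' notes name featureCounts 1.5.0-p3 and mm10; whether counting used the strand was not stated, and both directional and non-directional library preparation are described. The deposited values used are raw counts per gene, FPKM computed by the authors from counts and gene length, and the gene length itself (another deposited value, in bases). Columns of fold changes and p-values made by the authors were not used, nor were 9 columns of per-sample values from 3 libraries that belong to no sample of this series.

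The test on counts was that of edgeR 4.0.16 under R 4.3.3 (filterByExpr with a minimum count of 10, TMM scaling, quasi-likelihood test, no covariate), adjusted by the Benjamini-Hochberg procedure over all 18756 genes. Standard errors came from the F statistics. The script was tested on simulated data. Levels called TMM-scaled CPM use the TMM factors; CPM alone is unscaled. Single values were compared by two-sided exact permutation tests (scipy), which over the members gave 14 at the smallest possible p of 0.0286 and no Benjamini-Hochberg value below 0.363. Overlaps, neighbours, 31-base words and transcript sequences come from GENCODE M21, and mature microRNAs and gene classes from RefSeq GRCm38.p6. Alternatives were RLE size factors, no filter, a filter at 2 CPM, DESeq2 1.42.0, a replicate block, other CPM limits and leaving out each library. Named genes are the 10 most abundant members, every called member, the 5 largest rises and falls with an unadjusted p under 0.05 and no overlap, up to 4 members and the largest change of each functional list, the members beside the CPM limit, the 3 most variable, their nearest coding genes, and called or lowest-p partner genes. Any other gene named was picked with its values known. The members and lists were chosen with earlier results of these data known.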

Additional observations from a re-analysis of the deposited data

Results flagged for a closer look

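In 8 of the 76 groups of 4 libraries examined, 1 library lay far from the other 3. All 8 were groups of named lincRNAs. The gap was past Dixon's 95% critical value, which chance alone passes in about 1 group in 20. Dual libraries at the high end were the first for E130102H24Rik (4.60 TMM-scaled CPM, the others 3.07 to 3.32), the fourth for C230004F18Rik (5.44, the others 3.95 to 4.13) and the third for Snhg6 (9.87, the others 7.42 to 7.83). Dual libraries at the low end were the third for 2900097C17Rik (309.4, the others 322.9 to 324.5), the fourth for Snhg18 (13.8, the others 14.6 to 14.7) and the first for Gm7967 (1.47, the others 2.65 to 2.77). In the A2A antagonist group the third library was high for AW112010 (15.6, the others 13.3 to 13.7) and the first was low for Gm38102 (1.504, the others 2.11 to 2.15).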

How the results depend on the processing

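The single member called, Gm26917, was also called with RLE size factors, a replicate block and a 2 CPM filter. DESeq2, with an adjusted p for 8877 genes only, called it too. Leaving out 1 library gave 0 to 2 members. Without the low-count filter 4 members were called (Gm26917, Malat1, Pantr1 and Snhg6), without the ribosomal RNA repeat list, an alternative added after seeing the data, 0. Genes called overall moved more: 39 became 417 of 8877 with DESeq2, 366 without a filter and 17 with the replicate block, and 0 to 172 when 1 library was left out (0 without the fourth A2A antagonist or the third dual library, 172 without the first A2A antagonist library). At 1 CPM the rule takes 303 lincRNAs and at 5 CPM 84. Members without overlap were 18 to 31 (10.1 to 17.4%) with 1 library left out, 31 without the first A2A antagonist library, where the share of all genes tested also rose, from 7.42% to 9.82 to 13.5%. The replicate numbers did not pair the libraries (correlation of same-numbered deviations -0.06 to -0.01), and with the replicate block 21 members had an unadjusted p under 0.05, against 25. Of the 37 members refitted under each alternative, 12 with small differences had a log2 fold change that changed sign when 1 library was left out, with ranges of -0.00068 to 0.061 for Neat1, -0.049 to 0.013 for Gm3764, -0.069 to 0.00029 for Tmem250-ps, -0.018 to 0.040 for Gm42047, -0.018 to 0.045 for 6330403K07Rik, -0.088 to 0.056 for Ftx, -0.12 to 0.0021 for Snhg18, -0.050 to 0.033 for Miat, -0.044 to 0.070 for Mir155hg, -0.10 to 0.14 for Gm38102, -0.085 to 0.11 for Gm7160 and -0.22 to 0.42 for Gm10076. For Gm10076 the change came from the first dual library. Miat, at 0.00, was also at -0.0022 with DESeq2, -0.00028 with RLE and -0.0054 without a filter. The other 25 kept their sign. Further members given in the text were not refitted.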
